A study of Mus musculus with 8 samples.

Results

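The comparison described here is E7 added to S7: bone marrow mesenchymal stem cells that received the PCL-SE extract were set against cells that received the PCL-S extract, on day 3 and on day 7 of osteogenic differentiation. It rests on 4 of the 8 libraries of the series, 1 for each of the 2 arms on each day. Genes were followed where a rat gene identifier had at least 20 CPM (counts scaled to the library total) in either library of a day. That rule left 6651 genes on day 3 and 7422 on day 7, with 6321 on both days and 7752 on at least 1 day, of 22050 rat gene identifiers in the table. The threshold is arbitrary near its edge: on day 3 Ndst2 entered at 20.01 CPM in its higher library and Cbfa2t2 stayed out at 19.99. All groups were wild-type cells from a bone marrow mesenchymal stem cell line in osteogenic differentiation, kept in medium that had been used to extract polycaprolactone (PCL) scaffolds. PCL-S was read as the arm with S7, PCL-SE as S7 with E7 and PCL-E as E7 alone, from the group names in the series' design, and PCL-O as the blank by elimination. S7 is therefore present on both sides of the comparison. The sources used here give neither the peptides' sequences and doses nor how many cultures a library holds. The labels state Mus musculus while the gene identifiers are those of rat, so no species is named for them here.

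Bone marrow mesenchymal stem cells are stromal cells of the marrow that can form bone, cartilage and fat cells. During osteogenic differentiation the transcription factors Runx2 and Sp7 direct the cells to the osteoblast lineage. The cells then lay down a matrix of type I collagen, to which proteins such as osteopontin (Spp1) are added as it mineralises. In biomaterial work the name E7 is used for a short peptide that binds mesenchymal stem cells and is fixed to scaffolds to capture them, and genes of stem cell homing and adhesion were therefore among those listed. Immediate early genes such as Egr1 and Fos encode transcription factors that cells switch on within minutes of a growth factor or mechanical stimulus and switch off soon after.

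The 4 libraries held 32950326 to 40983073 counts, mitochondrial genes took 3.24% to 3.51% of them, and 3 counts corresponded to 0.0732 to 0.091 CPM. The 15 stromal marker genes that were matched summed to 49062 CPM with PCL-S and 46371 with PCL-SE on day 3, and to 11463 and 10859 on day 7. Thy1, a surface marker of mesenchymal stem cells, stood at 838 and 857 CPM on day 3 and at 418 and 384 on day 7. Osteoblast markers were low, with 59.5 and 58.6 CPM in all on day 3 and 37.8 and 44.9 on day 7. The defining markers of macrophages, neutrophils, lymphocytes and erythroid cells were near 0: the 14 macrophage genes summed to at most 1.06 CPM in any of the 4 libraries. The 6 adipocyte genes summed to at most 3.67 CPM, the 9 endothelial genes to 22.4 to 48.6 CPM with 3 or 4 of them at 0, and the 8 neural and glial genes to 12.9 to 20.8 CPM with 4 or 5 at 0. Each arm and day has 1 library, so differences within 1 day have no replicates behind them and get no test, and intervals on them cover counting error only. In these bulk samples fewer cells of a type and less RNA per cell cannot be told apart. CPM are printed on library totals and should be compared only within a day, because the scaling factors were about 0.90 on day 3 (0.902 and 0.906) and 1.11 on day 7 (1.105 and 1.107). The log2 ratios use TMM-scaled CPM with 2 added.

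With and without E7 beside S7, nearly all genes stood at similar levels. On day 3, 9 of 6651 genes (0.135%) differed 2-fold or more, with 4 higher in PCL-SE (0.0601%) and 5 lower (0.0752%). On day 7, 17 of 7422 (0.229%) did, 11 higher (0.148%) and 6 lower (0.0808%). Past 1.5-fold there were 24 genes on day 3 (0.361%), 10 higher (0.15%) and 14 lower (0.21%). On day 7 there were 58 (0.781%), 28 higher (0.377%) and 30 lower (0.404%). The 2 libraries lay within 1.2-fold for 98.3% of the genes on day 3 and for 92.6% on day 7. The SD of the log2 ratio across genes was 0.12 on day 3 and 0.17 on day 7. Counting error was smaller than this spread, since the 95% counting interval excluded equal levels for 31.2% of the genes on day 3 and 52.2% on day 7. The reference genes stayed close as well. Actb, cytoplasmic actin, stood at 6171 CPM with PCL-S and 6175 with PCL-SE on day 3 and at 4526 and 4212 on day 7. Tbp, the TATA-box binding protein, had log2 ratios of -0.14 and 0.06 on the 2 days.

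Most of the genes past 2-fold shared their annotation with another feature. Features carry the Swiss-Prot text of a protein match. Features with the same text, called copies here for short, may be near-identical genes between which reads are divided or distinct relatives, and no sequences were compared. Of the 745 genes on day 3 that shared their text with another feature, 7 were past 2-fold (0.940%), against 2 of the 5808 genes with a text of their own. On day 7 the counts were 11 of 815 (1.35%) and 5 of 6507. Genes with no text had 0 of 98 past 2-fold on day 3 and 1 of 100 (1%) on day 7. Past 1.5-fold on day 7 were 7 of these 100, all lower, against 26 of 815 with a shared text and 25 of 6507 with their own. When features with the same text were summed, 2 of 6514 sums were past 2-fold on day 3 and 7 of 7240 on day 7.

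Fau, the fusion of a ubiquitin-like protein and ribosomal protein S30, shows the pattern. On day 3 the feature named Fau stood at 114 CPM with PCL-S and 7.05 with PCL-SE, while its copy LOC687780 stood at 44.6 and 184 CPM, and the 3 features together at 187 and 198 CPM. On day 7 the order of Fau turned (13.4 and 30.2 CPM) and the sum again differed little (376 and 382 CPM). The 2 features named Rps27a, a ubiquitin and ribosomal protein fusion, stood at 80.8 and 312 CPM in PCL-S on day 3 against 211 and 196 in PCL-SE, with sums of 393 and 408 CPM. A family of 7 ribosomal protein L35a features behaved in the same way. LOC108351058 stood at 7.71 CPM with PCL-S and 70.4 with PCL-SE on day 7, LOC108349682 at 140 and 74.3, and the 7 features together at 172 and 177 CPM.

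The sums were also close for genes outside the ribosome. Among 5 features annotated as the heat shock cognate chaperone Hspa8, AABR07011951.1 had 169 CPM with PCL-S and 26.6 with PCL-SE on day 3, and AABR07048992.1 had 76.8 and 287 CPM on day 7. The Hspa8 sums were 1235 and 1278 CPM on day 3 and 1479 and 1394 on day 7. Nupr1, a stress-induced chromatin regulator, stood lower in PCL-SE on both days (88.5 and 63.5 CPM on day 3, 16.6 and 11.8 on day 7), and its copy Nupr1l1 stood higher (34.6 and 57.2, then 5.98 and 10.5). Their sums were 123 and 121 CPM on day 3 and 22.6 and 22.2 on day 7. Cd248, the stromal surface protein endosialin, had 38.0 CPM with PCL-S and 21.6 with PCL-SE on day 3, whereas the 3 features with its text summed to 101 and 101 CPM. On day 7 the Cd248 sums were further apart, at 36.1 and 27.3 CPM, a log2 ratio of -0.38.

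Some pairs did not sum to equal levels. AABR07072184.1, which had the highest ratio of all genes on day 7 (log2 ratio 3.46), stood at 0.27 CPM with PCL-S and 25.2 with PCL-SE on that day. With Ramp2, a receptor activity-modifying protein whose text it shares, the sums were 3.17 and 3.32 CPM on day 3 and 8.10 and 30.9 on day 7, a log2 ratio of 1.68. Pak2, a p21-activated kinase that acts on the actin cytoskeleton, stood at 83.1 CPM with PCL-S and 46.0 with PCL-SE on day 3 and at 106 and 41.8 on day 7. With its copy LOC100910732 the sums were 129 and 84.4 CPM, then 150 and 95.9, so PCL-SE was lower by a log2 ratio of -0.61 and -0.63. Aspn, the small matrix proteoglycan asporin, and its copy Aspnl1 summed to 72.1 and 71.6 CPM on day 3 and to 29.3 and 55.6 on day 7, a log2 ratio of 0.88. Zfp36l2, which binds AU-rich messenger RNA, and its copy LOC100911319 summed to 165 and 169 CPM on day 3 and to 173 and 234 on day 7. Pdha1, a subunit of pyruvate dehydrogenase, stood at 244 CPM with PCL-S and 124 with PCL-SE on day 7, and the sum with its copy AABR07026654.1 had a log2 ratio of -0.78.

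**Figure D1:**
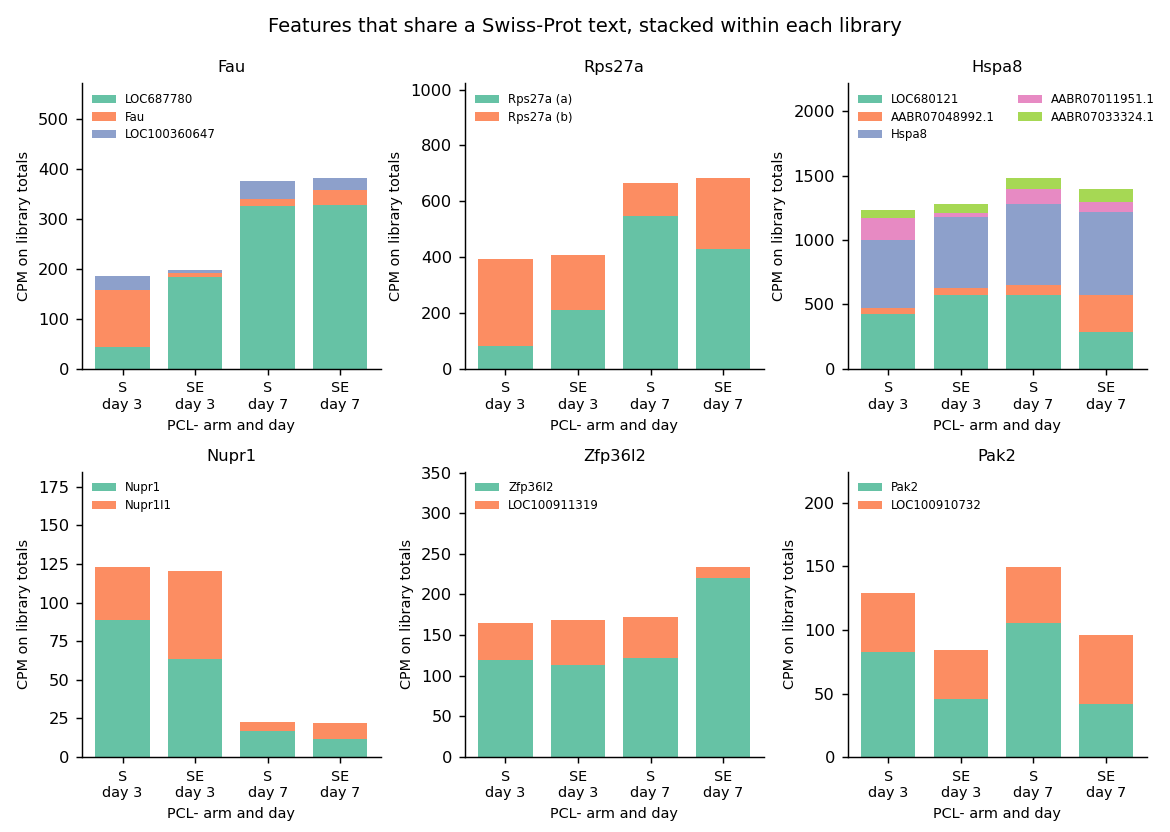
Levels of features that share a Swiss-Prot text, stacked within each of the 4 libraries in CPM on library totals, for 6 families; each bar is 1 library, and (a) and (b) mark the 2 features named Rps27a. The segments shift between PCL-S and PCL-SE, while the bars of Fau, Rps27a, Hspa8 and Nupr1 reach nearly the same height within a day and those of Pak2 do not (129 and 84.4 CPM on day 3).

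On day 3, the genes with a text of their own that stood 2-fold or more apart were Cdkn2b and Map2. Cdkn2b encodes p15, an inhibitor of the cyclin D kinases that TGF-beta induces. It stood at 25.2 CPM with PCL-S and 66.5 with PCL-SE, a log2 ratio of 1.33. The arms without S7 had 54.3 CPM (PCL-O) and 63.0 CPM (PCL-E) on that day, so the PCL-S library was the low one of the 4. On day 7 Cdkn2b stood at 63.6 CPM with PCL-S and 74.8 with PCL-SE. It was the 1 past 1.5-fold among 9 cyclin D and inhibitor genes measured on day 3, and Cdkn1a, the p21 inhibitor, had 220 and 228 CPM. Map2, a microtubule-binding protein best known from neurons, stood at 23.9 CPM with PCL-S and 10.7 with PCL-SE on day 3, and at 11.5 and 17.4 on day 7. It was the 1 past 1.5-fold among 15 microtubule-associated genes measured on day 3, whose median log2 ratio was -0.04. Spire1, an actin nucleator, stood at 38.9 and 65.7 CPM on day 3 and at 66.2 and 65.4 on day 7. Atg5, needed to build autophagosomes, stood at 29.3 and 16.2 CPM on day 3 and at 44.9 and 37.4 on day 7.

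Immediate early genes stood higher in PCL-SE on day 3 and mostly lower on day 7. All 16 listed genes at 20 CPM or more were higher on day 3, against 52.8% of all genes, with a median log2 ratio of 0.20 against 0.01 for all genes. On day 7, 13 of 16 were lower, against 47.3% of all genes, with a median of -0.22. Egr1, a zinc finger factor, stood at 127 CPM with PCL-S and 213 with PCL-SE on day 3, and at 124 and 71.1 on day 7. Btg2, an antiproliferative gene, stood at 40.5 and 59.4 CPM, then at 43.5 and 30.4. Junb, a subunit of the AP-1 factor, stood at 71.3 and 101 CPM, then at 116 and 96.6. Nr4a1, an orphan nuclear receptor, stood at 33.6 and 52.6 CPM on day 3 and at 16.7 and 16.9 on day 7. Fos, the partner of the Jun proteins in AP-1, lay just under the threshold on day 3 (9.27 and 19.5 CPM) and stood at 22.0 and 13.7 CPM on day 7. Klf2 and Klf6 were the exceptions on day 7 with Klf10 (log2 ratios 0.04, 0.15 and 0.00). Over both days these opposite ratios left the list with a median edgeR fold change of 0.00. Of its 23 tested genes 0 were called, and no rat gene of any kind was called in that fit. In PCL-E over PCL-O, which share no library with PCL-SE and PCL-S, the list medians had the other sign on each day: -0.21 over 13 of the genes on day 3, with 11 lower, and 0.21 over 14 on day 7, with 9 higher.

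Spp1 encodes osteopontin, the acidic phosphoprotein of bone matrix. It stood at 1680 CPM with PCL-S and 2795 with PCL-SE on day 7, a log2 ratio of 0.73, and at 870 and 916 CPM on day 3. PCL-O and PCL-E had 1296 and 1022 CPM on day 7, so PCL-SE was the highest of the 4 arms. Tnn, tenascin-N (also called tenascin-W), a matrix glycoprotein of periosteum and forming bone, stood at 26.4 CPM with PCL-S and 56.6 with PCL-SE on day 7, and at 304 and 284 on day 3. Tgfbi, a TGF-beta-induced adhesion protein of the matrix, stood at 35.0 and 71.7 CPM on day 7 and at 11.3 and 11.3 on day 3. Tgfbi was also higher in PCL-E (22.9 CPM) than in PCL-O (6.58 CPM) on day 7. Lum, the collagen-binding proteoglycan lumican, went the other way, with 29.2 CPM with PCL-S and 19.1 with PCL-SE on day 7.

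Other genes stood lower in PCL-SE on day 7. Igfbp2 encodes a binding protein that holds insulin-like growth factors outside the cell. It stood at 166 CPM with PCL-S and 72.1 with PCL-SE on day 7, a log2 ratio of -1.18, and at 295 and 298 CPM on day 3. The other 7 genes of the insulin-like growth factor axis measured on day 7 did not pass 1.5-fold. Cxcl1, a chemokine that attracts neutrophils, stood at 27.2 CPM with PCL-S and 12.9 with PCL-SE on day 7, and near 1 CPM in both on day 3 (1.15 and 1.12). Ccl2 and Ccl7, chemokines for monocytes, were close on day 7: Ccl2 stood at 84.3 and 89.6 CPM and Ccl7 at 86.0 and 80.5. Epas1, the hypoxia-inducible factor HIF-2 alpha, stood at 212 and 140 CPM on day 7 and at 469 and 466 on day 3. Among 15 hypoxia targets measured on day 7 the median log2 ratio was 0.00, and Epas1 was the 1 past 1.5-fold. Cryab, a small heat shock chaperone, stood at 385 and 260 CPM. Ripor2, a regulator of the small GTPase RhoA, stood at 50.9 CPM with PCL-S and 12.2 with PCL-SE. With PCL-O at 18.4 and PCL-E at 17.5 CPM, PCL-S was the library apart. In the other direction, Ctdspl2, a phosphatase, was higher in PCL-SE, at 9.89 and 28.2 CPM.

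**Figure D2:**
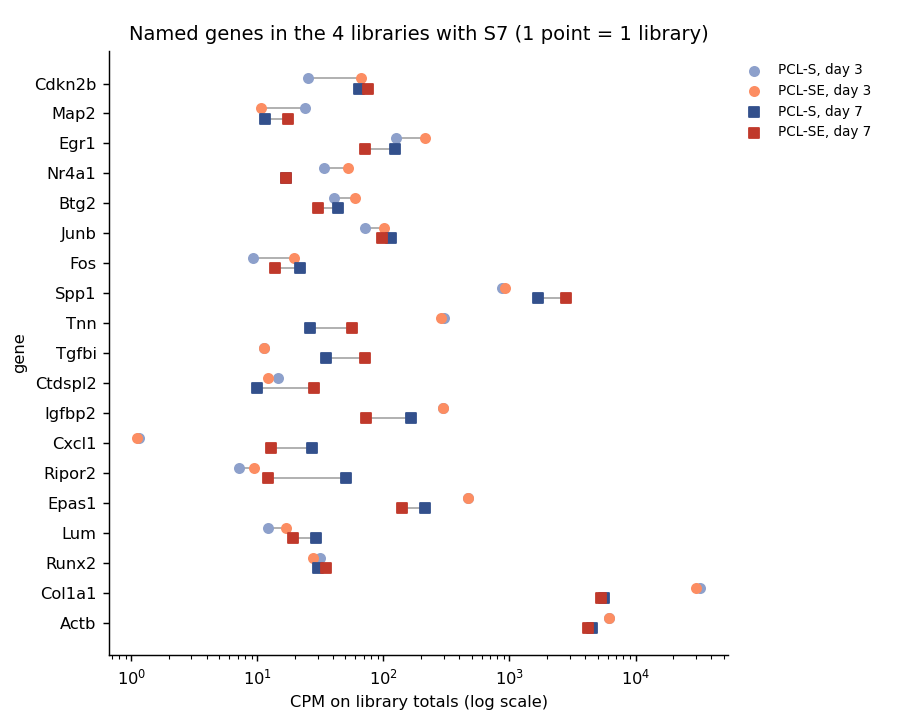
Levels of 19 genes in the 4 libraries with S7, in CPM on library totals on a log scale; each point is 1 library, circles are day 3, squares are day 7, and a line joins PCL-S and PCL-SE of a day. Cdkn2b differs on day 3 only (25.2 and 66.5 CPM), Spp1, Tnn, Tgfbi and Igfbp2 on day 7 only, and Egr1, Btg2 and Fos in opposite directions on the 2 days.

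Whether E7 changed any gene in the same way on both days was tested with edgeR's quasi-likelihood test, with day as a block. None of the 7751 genes that entered it was called at an adjusted p under 0.05, while 221 had an unadjusted p under 0.05. Of all 15200 features tested, 1 was called (0.00658%) and 404 had an unadjusted p under 0.05 (2.66%). The feature called was NewGene_3076, an unannotated transcript outside the rat gene set. It stood at 316 CPM with PCL-S and 169 with PCL-SE on day 3 and at 1635 and 801 on day 7 (log2 fold change -0.97 ± 0.07 (SE), edgeR adjusted p = 0.0418). Fitted with all 8 libraries and E7 taken within each S7 state, it had -0.98 and an edgeR adjusted p of 1.00. Its level also differed between PCL-O and PCL-E, with 746 and 253 CPM on day 3 and 190 and 285 on day 7. The smallest adjusted p among the genes was 0.131, for Pak2 (-1.10 ± 0.12) and AC136661.1 (1.08 ± 0.11). AC136661.1 carries a ribosomal protein S2 text from another rodent and stood at 3.86 and 7.49 CPM on day 3 and 17.6 and 39.8 on day 7. Nupr1 (-0.49 ± 0.08) and Nupr1l1 (0.75 ± 0.09) followed with adjusted p of 0.692 and 0.199. DESeq2 called 6 features, 3 of them genes at 20 CPM or more: Pak2 (-1.10, DESeq2 adjusted p = 9.8e-11), AC136661.1 (1.07) and LOC108349682 (-0.65). Leaving out either day 7 library from the 8-library fit left E7 with S7 as 1 library against 1 on day 3, with the spread taken from PCL-O and PCL-E, and the 1 feature then called was Fau, whose family sum had a log2 ratio of 0.08 on that day.

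Other genes with small p-values and the same sign on both days included some with large fold changes. LOC108351058 of the L35a family had a log2 fold change of 2.20 and LOC100360647 of the Fau family one of -1.30. The 6 genes that follow had smaller ones. Nr1d1, the clock repressor REV-ERB alpha, stood at 24.6 and 29.6 CPM on day 3 and at 60.6 and 80.7 on day 7 (log2 fold change 0.34 ± 0.08). Adra1d, an adrenergic receptor, had 0.47 ± 0.12, and its level in PCL-E exceeded that in PCL-O on day 7 (21.3 and 8.31 CPM). Aldh18a1, an enzyme of proline synthesis, had 0.39 ± 0.08, and Hira, a histone chaperone, had 0.42 ± 0.09, and both share their text with another feature. On the lower side Atg5 had -0.55 ± 0.14 and Msto1, a mitochondrial distribution protein, had -0.62 ± 0.13. The edgeR adjusted p was 1.00 for each of these 6 genes. The spread between the days also sets limits on what a common effect could be. The 95% interval of the fold change lay within 2-fold in either direction for 7715 of the 7751 genes (99.5%) and within 1.5-fold for 7609 (98.2%).

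Genes of osteogenic differentiation were mostly close in the 2 arms. None of 44 pathway lists, with 837 of 867 genes matched, held a called gene. The both-day fit called no rat gene at all, so this and each list's count of called genes say nothing about the lists. The list medians over both days ran from -0.15 to 0.10 against 0.01 for all genes followed. Runx2, the master factor of the osteoblast lineage, stood at 31.6 and 27.8 CPM on day 3 and at 30.2 and 35.2 on day 7 (0.01 ± 0.11, 95% interval -0.26 to 0.29). The 8 osteoblast marker genes had a higher median, 0.26 over the 6 tested, of which 0 were called and Runx2 was the 1 at 20 CPM or more. Msx2, a homeobox factor downstream of BMP, stood at 46.8 and 49.4 CPM, then at 147 and 163. Alpl, the alkaline phosphatase of mineralising cells, was low in both arms, with 7.47 and 7.25 CPM on day 3 and 0.70 and 1.33 on day 7. Bone matrix and mineralisation genes had medians of 0.02 on day 3 and 0.11 on day 7 over 9 genes, and Spp1 was the 1 past 1.5-fold. Sparc, osteonectin, stood at 8896 and 8932 CPM on day 3 and at 4187 and 3735 on day 7. BMP signalling genes had a median of 0.01 over 19 genes on day 3 and 0.05 over 20 on day 7. Cartilage genes were few at this level, with 3 measured on each day. Acan, the cartilage proteoglycan aggrecan, stood at 123 and 124 CPM on day 3 and at 64.2 and 77.9 on day 7.

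Collagen chains were slightly lower in PCL-SE on day 3: 18 of 19 measured had a ratio under 0, against 47.2% of all genes, and their median was -0.10. Col1a1, the main chain of type I collagen, stood at 32384 and 29957 CPM on day 3 and at 5659 and 5273 on day 7 (-0.11 ± 0.04 over both days, edgeR adjusted p = 1.00). On day 7, 9 of 18 collagen genes were lower, from Col15a1 at -0.42 to Col7a1 at 0.39 among all 18. Over both days 5 of 20 tested had an unadjusted p under 0.05, all lower, against 1.2% of all features, and 0 were called. Wnt signalling genes were lower on day 3 in 11 of 11 measured, with a median of -0.06, and higher in 7 of 11 on day 7. Cytosolic ribosomal proteins were higher on day 3 in 24 of 29, with a median of 0.04, and in 15 of 29 on day 7. Small shifts of this size moved with gene length: on day 3 the median ratio went from 0.04 in the 1331 shortest genes to -0.03 in the 1330 longest, and on day 7 from -0.03 to 0.05 between the 1485 shortest and the 1485 longest. The part of length in these list counts was not tested.

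Genes of stem cell homing and migration did not stand apart. Of 17 measured on day 3, 10 were higher and 7 lower, with a median of 0.02. Of 16 on day 7, 8 were higher and 8 lower, with a median of 0.00. None was past 1.5-fold, near the share of all genes that were (0.361% on day 3 and 0.781% on day 7). Cd44, the hyaluronan receptor, stood at 276 and 286 CPM on day 3 and at 505 and 503 on day 7. Nrp1, a semaphorin and VEGF co-receptor, stood at 112 and 110 CPM, then at 42.4 and 50.6. Cxcr4, the receptor for the homing chemokine Cxcl12, was at 4.34 CPM or less in all 4 libraries. Integrin and focal adhesion genes had medians of -0.01 over 18 genes on day 3 and 0.00 over 17 on day 7. Chemokines and cytokines had the lowest list median over both days (-0.15 over 14 tested genes), with 4 at 20 CPM or more on day 7 and Cxcl1 the 1 past 1.5-fold. Glucocorticoid-induced genes (medians 0.00 and -0.10) and NRF2 targets (0.03 and -0.03) had no member past 1.5-fold on either day, again near the share over all genes. Hmox1, the haem oxygenase among the NRF2 targets, stood at 132 and 149 CPM on day 3 and at 2907 and 2767 on day 7.

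Genes of proliferation, stress and metabolism were also close. Mitosis genes had medians of 0.01 over 25 genes on day 3 and -0.07 over 19 on day 7, and Mki67, the proliferation marker, stood at 175 and 175 CPM, then at 71.7 and 80.3. DNA replication genes were higher in 13 of 17 on day 3 and lower in 13 of 19 on day 7, with medians of 0.05 and -0.09. Cytosolic heat shock chaperones had medians of 0.05 and 0.02 over 14 genes on each day. Hsp90aa1, the inducible HSP90, stood at 361 and 419 CPM on day 3 and at 362 and 448 on day 7 (0.26 ± 0.06 over both days, edgeR adjusted p = 1.00). Basement membrane genes were lower in 9 of 11 on day 3 and in 6 of 7 on day 7. Nid2, the laminin-binding nidogen 2, had the lowest ratio of these on day 7, with 53.7 and 37.8 CPM. Cholesterol synthesis genes were higher in 12 of 18 on day 7, up to Idi1, an isoprenoid isomerase, at 27.9 and 37.9 CPM. No gene of these 5 lists was called, as no rat gene was. None stood past 1.5-fold on either day, near the share of all genes that did (0.361% on day 3 and 0.781% on day 7).

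**Figure D3:**
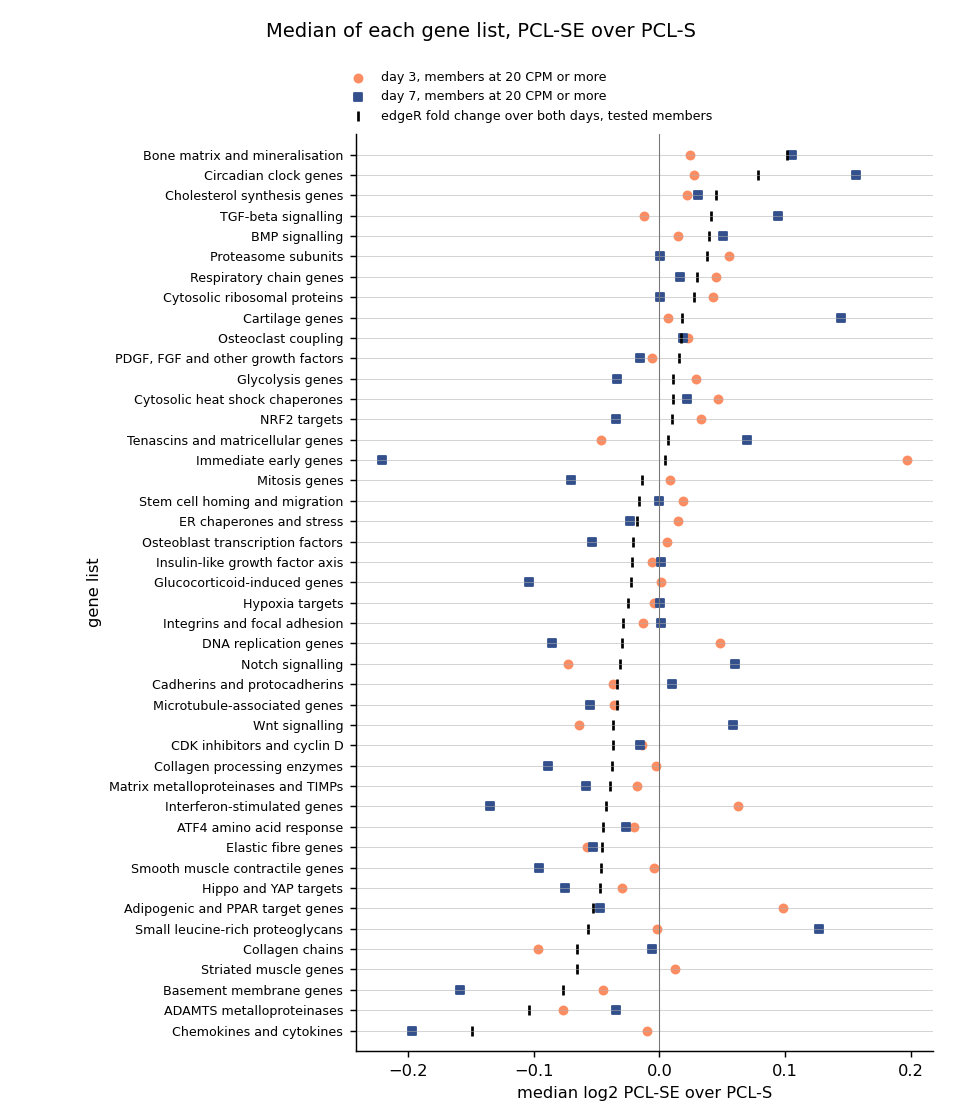
Median log2 PCL-SE over PCL-S of each of 44 gene lists: circles are day 3 and squares day 7 (list members at 20 CPM or more in either library of the day), and bars are the median edgeR fold change over both days. Immediate early genes have the widest gap between the days (0.20 and -0.22), and medians over both days stay between -0.15 and 0.10.

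The ratios on the 2 days were unrelated. Across the 6321 genes measured on both days, Pearson's r between the day 3 and day 7 ratios was -0.08 and Spearman's rho -0.04, and 49.7% had the same sign. The 2 days share no library, but genes within a library are not independent. Past 1.5-fold, 0 genes were higher on both days and 2 were lower on both, Pak2 and LOC100360647 of the Fau family. Another 5 were past 1.5-fold in opposite directions: Egr1 higher on day 3 and lower on day 7, and Fzd8, Surf4, Fau and 1 of the Rps27a features the other way. Fzd8, a Wnt receptor, stood at 28.2 and 15.6 CPM on day 3 and at 57.9 and 89.9 on day 7, while with its copy LOC100909849 the sums were 53.8 and 45.7, then 212 and 196.

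**Figure D4:**
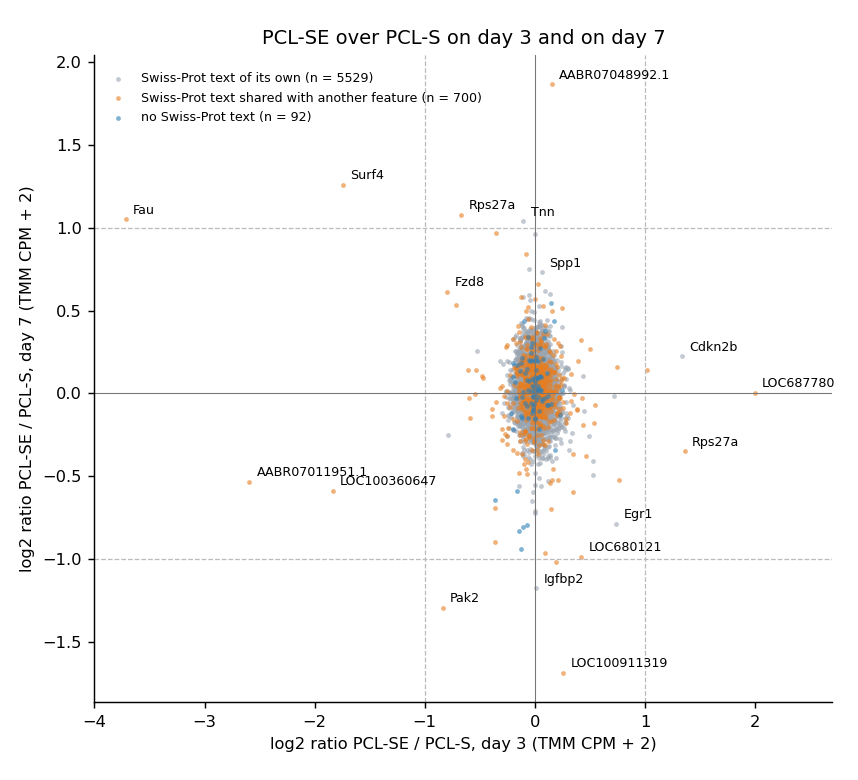
Log2 ratio of PCL-SE over PCL-S on day 3 (x axis) against day 7 (y axis) for the 6321 genes at 20 CPM or more on both days, coloured by whether the Swiss-Prot text is shared with another feature; dashed lines mark 2-fold. Points lie in a round cloud (r = -0.08). Past 2-fold, 7 of 9 genes on day 3 and 11 of 17 on day 7 share their text with another feature. These counts include genes under 20 CPM on the other day, which are not drawn.

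The effect of E7 in the absence of S7 was measured by PCL-E against PCL-O, in libraries that do not enter the comparison above. Among genes with a text of their own and 20 CPM or more in both comparisons, 2 of 5697 were past 2-fold on day 7 where E7 was added to S7, and 58 were past it between PCL-E and PCL-O. On day 3 the counts were 2 and 2 of 5501. The SD of the log2 ratio on day 7 was 0.14 with S7 and 0.31 without it. Of those 58, 40 were higher in PCL-E, and 21 of the 40 were also higher in PCL-SE than in PCL-S, with a median log2 ratio of 0.01. The other 18 were lower in PCL-E, and 11 of the 18 were also lower in PCL-SE, with a median of -0.09. Of all genes on that day 52.7% were higher and 47.3% lower.

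Levels in the 4 arms on day 7 show where these genes lay, for genes chosen after their values were seen. Hmox1 stood at 182 CPM with PCL-O, 687 with PCL-E, 2907 with PCL-S and 2767 with PCL-SE. Nqo1, a quinone reductase under NRF2 control, stood at 275, 1203, 2969 and 2904 CPM in the same order. Angptl4, a secreted inhibitor of lipoprotein lipase, stood at 0.18, 26.4, 247 and 208 CPM. Cpt1a, which brings fatty acids into mitochondria, stood at 14.8, 74.8, 254 and 269 CPM. In these 4 genes PCL-E lay between PCL-O and the S7 arms. That order, on levels scaled by TMM over the 8 libraries (factors 0.9547 to 1.156 on day 7), was found in 43 of the 58 genes. In 10 others both S7 arms lay between PCL-O and PCL-E, in 2 they lay beyond PCL-O on the other side, and 3 had another order. The 58 were chosen by the distance of PCL-E from PCL-O, and the same PCL-O and PCL-E libraries enter the order. The share of each order among all genes was not computed, so these counts are no test. Fasn, fatty acid synthase, stood at 377, 196, 226 and 213 CPM, so PCL-E and the S7 arms were alike in level. Cyp1a1, a target of the aryl hydrocarbon receptor, stood at 0.76, 49.3, 34.0 and 31.9 CPM, and Acan at 88.5, 242, 64.2 and 77.9 CPM. The first order held downwards for Slit3, a secreted guidance protein (235, 75.2, 12.7 and 9.28 CPM), for Myh11, smooth muscle myosin (325, 134, 22.5 and 18.5 CPM), and for Col12a1, a fibril-associated collagen (5995, 2968, 939 and 1119 CPM). Id2, a BMP target, stood at 10.8, 47.6, 83.5 and 102 CPM.

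**Figure D5:**
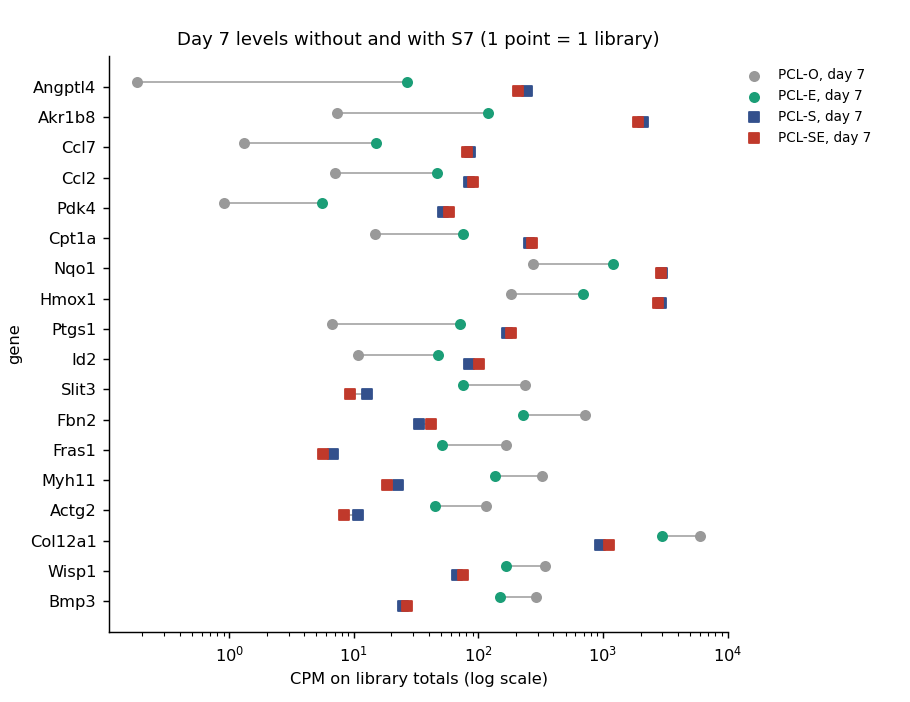
Day 7 levels of 18 genes in the 4 arms, in CPM on library totals on a log scale; each point is 1 library, circles are the arms without S7 and squares those with it, and lines join the arms without and with E7. PCL-E lies apart from PCL-O in each gene (Hmox1 at 687 and 182 CPM), while PCL-SE and PCL-S lie closer together (2767 and 2907 CPM, and 9.28 and 12.7 for Slit3). The 18 genes were picked from those called for E7 with S7 minus E7 without S7 in fits without a day 3 library. This contrast is therefore part of how they were selected.

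The difference between E7 with S7 and E7 without S7 was tested over both days with all 8 libraries. It was called for 0 of 15942 features (0%) by edgeR's quasi-likelihood test. Its unadjusted p was under 0.05 for 614, while 12 were called by DESeq2. The outcome depended on the day 3 libraries without S7. Without PCL-O day 3 the count was 248, and without PCL-E day 3 it was 198, all of them among the 248. These fits take E7 without S7 from day 7 alone, and their spread comes from PCL-S and PCL-SE. Of the 198, 142 were genes at 20 CPM or more, for which E7 with S7 minus E7 without S7 was above 0 in 63 and below 0 in 79. Without PCL-O day 3, Angptl4 had a difference of -7.36 and Slit3 one of 1.56. The value for Angptl4 rests on 0.18 CPM in PCL-O on day 7. Its log2 ratio of PCL-E over PCL-O was -0.30 on day 3 and 3.67 on day 7.

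On day 3, 19 genes were 2-fold apart between PCL-E and PCL-O, 5 higher and 14 lower in PCL-E. Of the 11 with a shared text among them, 10 had a ratio of the same sign in PCL-SE over PCL-S (4 of 4 higher and 6 of 7 lower). Of all genes on that day 52.8% were higher and 47.2% lower. Features with the same text may divide reads between them, so the 11 cannot be counted as separate genes. The 6 with no Swiss-Prot text, all lower in PCL-E, were also lower in PCL-SE than in PCL-S, with log2 ratios of -0.37 to -0.08. AABR07015066.1, with the lowest of these ratios, stood at 50.8 and 21.0 CPM without S7 and at 22.9 and 17.4 with it, the lower value with E7 each time. AABR07015078.1 stood at 126 and 47.8 CPM without S7 and at 56.8 and 51.4 with it. In each of the 6, PCL-O was the highest library, and PCL-E lay nearer to the S7 arms than to PCL-O. Several of the 6 have similar identifiers, and whether they are separate genes was not tested. The 2 genes with a text of their own did not have the same sign. Pak2 stood at 101 CPM in PCL-O and 42.7 in PCL-E on day 3, next to 83.1 with PCL-S and 46.0 with PCL-SE. Fzd8 stood at 92.2 and 35.6 CPM without S7 and Cd248 at 27.7 and 8.21, next to the lower PCL-SE levels given above. Summed with their copies, PCL-S and PCL-SE had 53.8 and 45.7 CPM on day 3 for Fzd8 and 101 and 101 for Cd248. On day 7 Pak2, Fzd8 and Cd248 were close between PCL-O and PCL-E. Pak2 stood at 98.7 and 101 CPM, Fzd8 at 78.0 and 76.7 and Cd248 at 26.6 and 31.7. Of the genes with no text, AABR07015066.1 stood at 4.31 and 18.1 CPM on day 7 and AABR07000398.1 at 1.46 and 31.5. Both were thus higher in PCL-E on that day, opposite to day 3. With S7 both were lower in PCL-SE on day 7, as on day 3. AABR07015066.1 stood at 98.9 CPM with PCL-S and 62.6 with PCL-SE, and AABR07000398.1 at 329 and 218.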

How the data were processed

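The report compares 4 of 8 RNA-seq libraries (PCL-S and PCL-SE on days 3 and 7) made, per the labels, with the SMARTER mRNA kit. Whole-number counts for each gene were deposited by the authors, and FPKM (counts per kilobase and library size) were deposited beside them; the FPKM served here only to derive gene lengths. The labels give n = 3 for the RNA extraction, but each arm and day has 1 column, and pooling, aligner and counter are not stated in the sources at hand. P-values thus measure the spread between these libraries, which may be technical. Left out were 10 lines that name no feature.

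edgeR 4.0.16 in R 4.3.3 filtered (filterByExpr), scaled (TMM) and fitted 15200 features with day as a block, leaving 1 residual degree of freedom, with Benjamini-Hochberg adjustment. An 8-library fit, with 2 residual degrees of freedom, compared E7 with and without S7. Ratios within a day used TMM-scaled CPM with 2 added. The rule for named genes took those called, the 12 smallest p per direction with 1 sign on both days, the 10 largest ratios per direction and day, genes past 1.5-fold on both days, list members and reference genes. Which list members are printed was decided with their values in view. Members and lists were chosen with earlier results of these data known. Scripts were tested on simulated data. Alternatives were DESeq2 1.42.0, other scalings, filters and pseudocounts, no block and leaving out libraries. Sums over a shared Swiss-Prot text, and genes with their own text only, were added after seeing the data.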

Additional observations from a re-analysis of the deposited data

Results flagged for a closer look

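In 5 genes the PCL-SE and PCL-S libraries stood at least 1.5-fold apart in opposite directions on the 2 days, and in none of them was the difference between the days tested, since each day has 1 library per arm. Egr1 had a log2 ratio of 0.74 on day 3 and -0.79 on day 7. Fzd8 had -0.79 and 0.61, Surf4, a cargo receptor of the early secretory pathway, had -1.75 and 1.26, and Fau had -3.72 and 1.05. One of the 2 Rps27a features had -0.67 and 1.08. Egr1 has a Swiss-Prot text of its own, whereas the other four share theirs with another feature. Summed with the features of the same text, Fau had 0.08 and 0.02, Rps27a 0.05 and 0.03, Fzd8 -0.23 and -0.11, and Surf4 -0.44 and 0.42.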

How the results depend on the processing

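The both-day comparison called 1 feature, and 6 with DESeq2. It called 0 on rat genes at 20 CPM or more only, with no day block, and in both fits of all 8 libraries, where leaving out 1 library gave 0 to 1. NewGene_3076 kept its call with other scalings, without the low-count filter and with DESeq2, and lost it without the day block and in each 8-library fit; the cause was not tested. For E7 with S7 minus E7 without S7, DESeq2 called 12, and leaving out 1 library gave 0 to 248 (198 without PCL-E day 3, 248 without PCL-O day 3). With a minimum of 5 CPM, 16 genes on day 3 and 36 on day 7 were past 2-fold. Summing features with the same text gave 2 and 7, and genes with a text of their own gave 2 and 5, with fewer features compared. Other scalings and pseudocounts kept each count within 1.5 times. Of the single-gene values under these alternatives, 396 kept direction and call, 0 reversed, 3 gained a call with DESeq2 (Pak2, LOC108349682 and AC136661.1), 7 lost one (NewGene_3076), and 13 ratios within a day lay outside their counting interval, which is computed on counts with nothing added.

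Day was the block that paired PCL-SE with PCL-S; a further block by replicate number could not be made, since each arm and day has 1 library. Each day rests on 1 library per arm, so its ratios have no replicate error.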
